A study of Rattus norvegicus with 48 samples.

Results

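Amlexanox added to cultures that received HIV Tat protein was followed in 6 of the 48 RNA-seq libraries, 3 labelled Tat-Amlexanox (Tat with amlexanox) against 3 labelled Tat, over all 30211 genes of the deposited table. All cultures were primary brain cells of Sprague-Dawley rat fetuses of day 18, grown to day 21 in vitro. The Tat cultures received Tat at 6 ng/mL for 48 h, and the Tat-Amlexanox cultures received the same Tat with amlexanox at 25 µM for 48 h. Other libraries of the series serve here for comparison, with 3 of each kind. Control cultures received no Tat, cocaine or compound, and Amlexanox cultures received amlexanox at 25 µM alone for 48 h. Tat-Cocaine and Tat-Cocaine-Amlexanox cultures had cocaine at 25 µM for 24 h besides Tat without or with amlexanox. Cocaine cultures received cocaine at 25 µM for 24 h without Tat or a compound. Tat-Senicapoc, Tat-Tazemetostat and Tat-4OI cultures received Tat with senicapoc at 1 µM, tazemetostat at 3 µM or 4-octyl-itaconate at 250 µM, all for 48 h. Tat was added as a protein, so that no culture held replicating virus.

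Tat is the transcriptional activator of HIV. Infected cells release it, and it is known to injure neurons and to activate microglia, the resident macrophages of the brain, which then secrete cytokines and chemokines. Amlexanox is an anti-inflammatory and antiallergic drug. It inhibits TBK1 and IKKε (gene Ikbke), related kinases that act downstream of innate immune sensors toward interferon regulatory factors, and it also inhibits cAMP phosphodiesterases and binds S100a13 and Fgf1. The question addressed was which transcripts differed when amlexanox accompanied Tat.

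The values are CPM, that is, reads on a gene per 1000000 reads on genes (1 M) after scaling between libraries. The 6 libraries held 17.5 to 22.6 M reads on genes, and Tat-Amlexanox replicate 1 was the shallowest of all 48. Although the labels give the cell type as neuron, the cultures were mixed. In the Tat libraries the neuronal gene Map2 stood at 302 to 471 CPM, the astrocyte gene Gfap at 2231 to 3680 CPM and the myeloid gene Aif1 at 139 to 366 CPM. In bulk RNA, fewer cells of a type and less RNA per cell cannot be told apart. Nothing in the labels says that the 3 replicates were separate cultures or animals, so the tests measure only the spread between these libraries.

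Few genes passed the test between Tat-Amlexanox and Tat, and the called falls were steeper than the called rises. Of 15890 genes tested, 133 (0.837%) passed a false discovery rate (FDR) of 0.05 in limma, 64 higher (0.403%) and 69 lower (0.434%) in Tat-Amlexanox, while 1988 had an unadjusted p under 0.05. The detoxifying enzyme gene Cyp1a1 and the locus LOC24906 led the rises. The chemokine Ccl19, the prostaglandin E synthase Ptges and the leukocyte activation marker Cd69 led the falls. The median log2 difference was 0.42 among the 64 rises, of which 3 exceeded 1, and -0.85 among the 69 falls, of which 27 went beyond -1. The falls had a median Tat level of 18.2 CPM and the rises one of 55.8 CPM. The part of expression level in the steeper falls was not tested. All log2 differences are on the scale log2(CPM + 0.5), which understates changes of genes near 0. The volcano plot shows this asymmetry. Quantile normalization instead called 182 genes, 63.2% of them higher, where the main fit had 48.1% higher.

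The calls depended on single libraries. In all 133 genes the 3 Tat-Amlexanox libraries lay wholly on one side of the 3 Tat libraries, as in 18% of all genes tested, so that leaving out 1 library could not turn a direction. Without Tat-Amlexanox replicate 1, limma called 0 genes, with 1158 at an unadjusted p under 0.05, and without Tat replicate 2 it called only SNORD28. Leaving out Tat replicate 3 or Tat-Amlexanox replicate 3 left 14 and 22 genes, while leaving out Tat replicate 1 or Tat-Amlexanox replicate 2 gave 178 and 130. All 133 genes kept an unadjusted p under 0.05 in each of these 6 fits. With the replicate number as a block, limma called 493 genes, 44% of them higher, and those included all 133. The bar plot of settings shows this range.

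**Figure D1:**
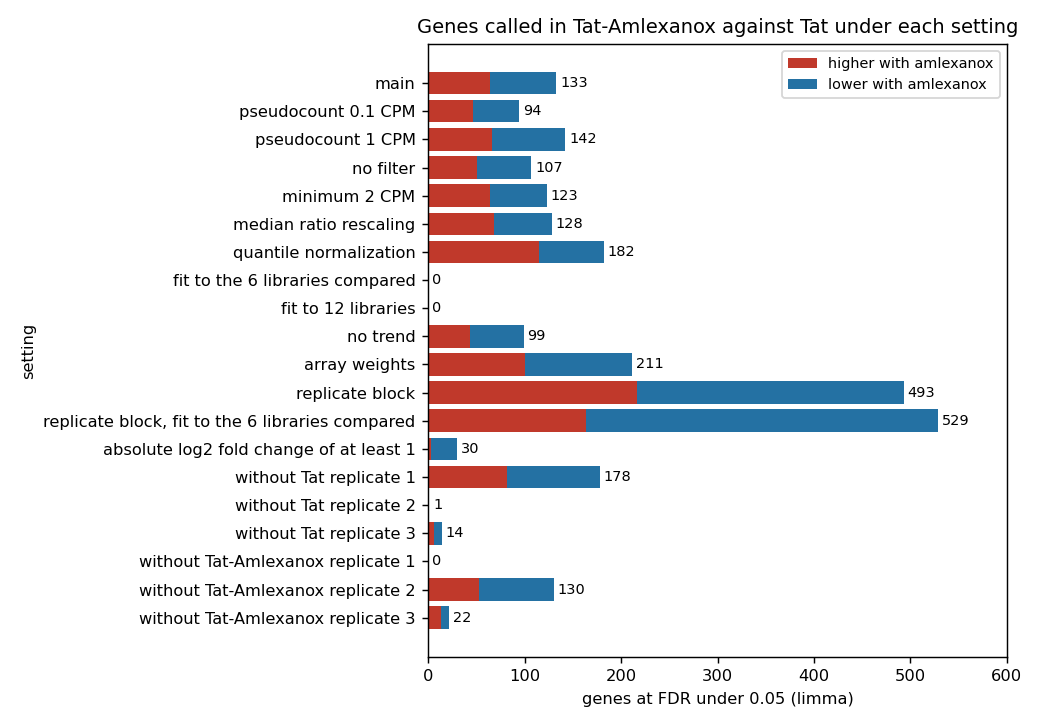
Number of genes with a limma FDR under 0.05 in Tat-Amlexanox against Tat (horizontal bars from 0) under each processing alternative. The count runs from 0 without Tat-Amlexanox replicate 1 to 529 with the replicate block in a fit to the 6 libraries alone, around 133 in the main fit.

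Among the rises, LOC24906 changed most. It stood at 1.22, 1.15 and 0.331 CPM in Tat and at 15.7, 6.73 and 3.10 CPM in Tat-Amlexanox, so the lowest Tat-Amlexanox library exceeded the highest Tat library. The difference was 2.50 on the log2 scale (SE 0.494, FDR 0.0190). It was low without Tat, with 0 to 0.318 CPM in Control and 0.0835 to 0.243 CPM in Amlexanox.

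Cyp1a1 encodes a cytochrome P450 that oxidises aromatic hydrocarbons and is the best known target of the aryl hydrocarbon receptor. It was at 2.74, 1.06 and 2.51 CPM in Tat and at 12.6, 7.75 and 15.3 CPM in Tat-Amlexanox. The groups did not overlap, with a log2 difference of 2.27 (SE 0.482, FDR 0.0217). Without Tat the groups overlapped, as Cyp1a1 had 2.11, 0.735 and 1.09 CPM in Control and 1.25, 2.29 and 0.939 CPM in Amlexanox. The test of whether the amlexanox effect was larger in Tat than in Control cultures missed the threshold (difference of effects 2.12, FDR 0.085).

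The other targets of the aryl hydrocarbon receptor in a list of 7 genes, of which 6 were tested, did not pass. Ahrr, the repressor of the receptor and itself one of its targets, stood at 1.72, 1.01 and 1.99 CPM in Tat and at 2.78, 2.93 and 6.15 CPM in Tat-Amlexanox (log2 difference 1.05, FDR 0.064, and FDR 0.0133 with the replicate block). Ahr, the receptor itself, was at 29.5, 37.5 and 24.3 CPM in Tat and lower, at 14.7, 21.1 and 14.5 CPM, in Tat-Amlexanox (log2 difference -0.84, FDR 0.166, and FDR 0.0249 with the block). Cyp1b1, a related P450, differed by 0.73 (FDR 0.405). The list's median log2 difference was 0.54, against -0.02 over all genes tested.

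Pde7b, a phosphodiesterase that hydrolyses cAMP, was the only one of 10 cAMP phosphodiesterases past the threshold. It stood at 9.99, 7.82 and 8.32 CPM in Tat and at 15.4, 13.6 and 15.7 CPM in Tat-Amlexanox. These ranges did not overlap, and the log2 difference was 0.74 (SE 0.188, FDR 0.0479). In the same list Pde4b, which also degrades cAMP, differed by -0.62 (FDR 0.274), and the list's median was 0.03.

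A pair of GPI-anchored surface proteins also rose. Cd59, which blocks the membrane attack complex of complement, went from 93.3, 75.4 and 96.3 CPM in Tat to 146, 132 and 132 CPM in Tat-Amlexanox (log2 difference 0.63, FDR 0.0282). Cd24, a glycoprotein of immature neurons and other cells, went from 359, 257 and 321 CPM to 530, 451 and 427 CPM (log2 difference 0.59, SE 0.115, FDR 0.0167). In both, every Tat-Amlexanox library lay above every Tat library. Cd24 kept its call in 4 of the 6 fits that left out a library, losing it without Tat replicate 2 or Tat-Amlexanox replicate 1.

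Other rises among the 12 largest were smaller than 1 on the log2 scale except for AABR07015057.1 (1.11, FDR 0.0480). Plekhg6 went from 3.60, 2.90 and 3.31 CPM to 6.34, 5.55 and 6.93 CPM (log2 difference 0.85, FDR 0.0322). Thoc1, a subunit of the complex that couples transcription to mRNA export, rose by 0.64 (FDR 0.0338), and C1galt1, which builds core O-glycans, by 0.62 (FDR 0.0236). LOC102556092 rose by 0.59. Of the 64 rises, 46 were under 0.5, at a median Tat level of 55.8 CPM against 22.5 CPM over all genes tested. Chosen after their values were seen, examples of such small rises are Thoc2 (0.30), a partner of Thoc1 in that complex, the nonsense-mediated decay factor Upf2 (0.49), the nuclear pore protein Ranbp2 (0.45) and the ubiquitin ligases Smurf2 (0.37) and Itch (0.32).

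The mitochondrially encoded genes stood higher with amlexanox. Mt-nd4, a subunit of respiratory complex I, was at 242, 193 and 249 CPM in Tat and at 349, 371 and 387 CPM in Tat-Amlexanox (log2 difference 0.70, FDR 0.0466). Its neighbour Mt-nd4l, whose reading frame overlaps that of Mt-nd4, was at 364, 291 and 380 CPM and at 551, 567 and 596 CPM (log2 difference 0.74, FDR 0.0299), so reads over the overlap may be shared. In Control, Mt-nd4 had 551, 405 and 395 CPM, above every Tat-Amlexanox library. All 13 mitochondrially encoded protein genes were above 0 in log2 difference, with a median of 0.43, but only these 2 passed the test. They took 4.42 to 5.35% of the Tat libraries, 6.20 to 7.61% of the Tat-Amlexanox libraries and 6.12 to 9.27% of the Control libraries. In cultures without Tat the same 13 genes were again all above 0 with amlexanox (median 0.38). There 2 passed the test, Mt-atp8 (0.50, FDR 0.0453) and Mt-nd2 (0.53, FDR 0.0385), whereas Mt-nd4 (FDR 0.224) and Mt-nd4l (FDR 0.182) did not. With cocaine present 12 of the 13 were above 0 and 0 were called (median 0.19), Mt-nd3 was at -0.14, and the shares overlapped, at 5.32 to 6.80% in Tat-Cocaine and 6.01 to 7.12% in Tat-Cocaine-Amlexanox. The part of culture state or RNA quality in these values was not tested. None of 66 ribosomal protein genes passed, with a median of -0.18 (chosen, like the mitochondrial genes, after values were seen).

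Genes of immune lists were among the falls. Of 10 lists of immune and inflammatory genes, 4 had 1 member each that fell, where 0.434% of all genes did. These were Ccl19 of 24 chemokines tested, Ptges of 12 prostaglandin and leukotriene genes, Retn of 15 acute-phase and secreted defence genes and Socs1 of 40 interferon-stimulated genes. The other 6 lists (the TBK1 pathway, cytokines, NF-kB, complement, antigen presentation and microglial activation) had 0 calls. Their promoters are shown because these are the immune-list genes that fell and because NF-kB and interferon regulatory factors, which act downstream of TBK1 and IKKε, bind short motifs in such regions. Each runs from 250 bases before to 50 bases after the RefSeq start in build GRCr8, 5′ to 3′ along the gene's strand. Capitals mark matches to GGGNNTTTCC (for NF-kB) or GAAANNGAAA (for interferon regulatory factors), searched on both strands.
Ccl19, chr5:61761115-61761414, minus strand: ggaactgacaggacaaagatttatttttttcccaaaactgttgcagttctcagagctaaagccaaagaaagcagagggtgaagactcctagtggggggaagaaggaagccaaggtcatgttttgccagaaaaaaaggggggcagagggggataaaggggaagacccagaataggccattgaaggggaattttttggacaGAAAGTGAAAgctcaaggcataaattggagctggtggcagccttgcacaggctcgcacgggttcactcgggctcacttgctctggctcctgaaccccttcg
Ptges, chr3:34586938-34587237, minus strand: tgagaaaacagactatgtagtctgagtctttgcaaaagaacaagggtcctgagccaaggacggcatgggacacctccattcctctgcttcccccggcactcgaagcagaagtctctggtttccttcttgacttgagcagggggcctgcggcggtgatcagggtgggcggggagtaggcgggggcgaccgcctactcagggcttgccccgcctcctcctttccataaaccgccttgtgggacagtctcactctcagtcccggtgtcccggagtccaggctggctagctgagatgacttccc
Retn, chr12:6508524-6508823, plus strand: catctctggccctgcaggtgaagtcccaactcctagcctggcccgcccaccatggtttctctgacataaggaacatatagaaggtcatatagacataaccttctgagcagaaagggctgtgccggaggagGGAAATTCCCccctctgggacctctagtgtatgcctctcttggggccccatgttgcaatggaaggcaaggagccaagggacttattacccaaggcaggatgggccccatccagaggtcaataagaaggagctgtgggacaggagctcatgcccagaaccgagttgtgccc
Socs1, chr10:5389324-5389623, plus strand: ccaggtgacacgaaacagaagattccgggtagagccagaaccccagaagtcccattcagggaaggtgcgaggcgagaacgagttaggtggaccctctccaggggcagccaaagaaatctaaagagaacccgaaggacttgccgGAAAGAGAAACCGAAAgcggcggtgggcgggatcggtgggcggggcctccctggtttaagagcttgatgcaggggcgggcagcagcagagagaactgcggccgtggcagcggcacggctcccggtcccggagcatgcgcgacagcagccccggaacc
The promoter of Ccl19 held 1 interferon-type match starting 51 bases upstream, and that of Socs1 held 2 overlapping ones starting 107 and 101 bases upstream. The promoter of Retn held 1 NF-kB-type match, on the minus strand, starting 120 bases upstream, and that of Ptges held neither motif. Among the 50 of 69 falling genes with a promoter in the table, 3 (6.00%) held the interferon-type motif and 1 (2.00%) the NF-kB-type motif, against 2.91% and 1.79% of the tested genes with a promoter. Among 42 of 64 rising genes these shares were 2.38% and 4.76%. Of all 27457 promoters, 3.77% and 1.51% held them. A match describes letters only.

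Ccl19, the chemokine that draws CCR7-bearing T cells and dendritic cells, fell most. It was at 8.72, 39.9 and 67.0 CPM in Tat and at 1.72, 2.88 and 3.05 CPM in Tat-Amlexanox. Tat replicate 1 was much lower than the other Tat libraries but still above all 3 Tat-Amlexanox libraries. The log2 difference was -3.29 (SE 0.746, FDR 0.0276), and it ran from -4.13 to -2.69 when 1 library was left out, with FDR up to 0.231. Control held 0.192, 2.60 and 0 CPM, so the Tat-Amlexanox and Control libraries overlapped.

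Ptges makes prostaglandin E2 from the product of the cyclooxygenases. It was at 31.8, 54.2 and 43.8 CPM in Tat and at 5.06, 12.99 and 5.76 CPM in Tat-Amlexanox, with Control at 0.227 to 0.834 CPM. The groups did not overlap, and Tat-Amlexanox stayed well above Control. The log2 difference was -2.46 (SE 0.560, FDR 0.0282).

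Cd69, a lectin shown by recently activated leukocytes, was at 6.59, 17.8 and 7.09 CPM in Tat and at 1.17, 3.54 and 0.872 CPM in Tat-Amlexanox (log2 difference -2.24, SE 0.451, FDR 0.0190). Control had at most 0.0908 CPM. Retn, the secreted peptide resistin, was at 0 in all 3 Control libraries, at 5.02, 9.20 and 7.42 CPM in Tat and at 1.92, 4.11 and 2.14 CPM in Tat-Amlexanox (log2 difference -1.28, SE 0.250, FDR 0.0170). Socs1, an inhibitor of JAK-STAT signalling that cytokines induce, was at 4.87, 4.46 and 3.78 CPM in Tat and at 2.28, 2.57 and 2.14 CPM in Tat-Amlexanox (log2 difference -0.78, SE 0.185, FDR 0.0338). In each of these 3 genes the lowest Tat library lay above the highest Tat-Amlexanox library. Socs1 in Tat-Amlexanox lay within the Control range of 1.53 to 2.65 CPM, whereas Cd69 and Retn remained above theirs.

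The plot of 12 genes by library shows these values.

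**Figure D2:**
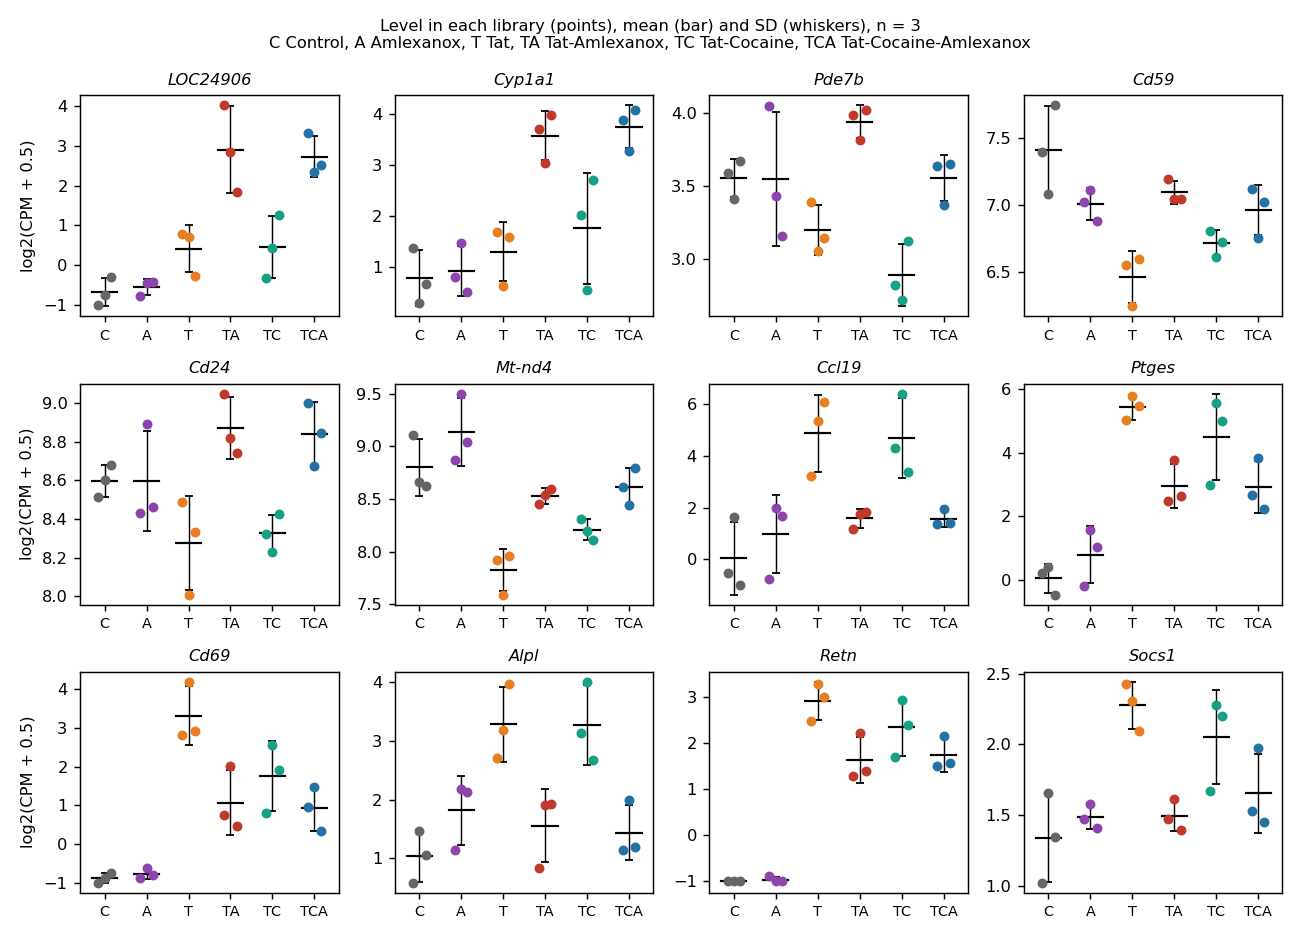
Level of 12 genes on the log2(CPM + 0.5) scale (vertical axes) in each library of 6 groups (horizontal axes), with 1 point per library and the mean with its SD (n = 3). LOC24906 and Cyp1a1 are high in both groups with Tat and amlexanox, and Ccl19 is high in Tat and Tat-Cocaine and lower where amlexanox was added.

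Further falls among the 12 largest included secreted and surface proteins. Alpl, tissue-nonspecific alkaline phosphatase, was at 6.03, 8.60 and 15.2 CPM in Tat and at 1.28, 3.23 and 3.31 CPM in Tat-Amlexanox (log2 difference -1.73, SE 0.355, FDR 0.0202). Pgf, a growth factor of the VEGF family, went from 11.4, 24.2 and 23.2 CPM to 3.73, 8.11 and 4.27 CPM (log2 difference -1.77, FDR 0.0217). Crispld2, a secreted protein that binds lipopolysaccharide, went from 19.4, 29.9 and 17.3 CPM to 4.95, 9.60 and 4.36 CPM (log2 difference -1.78, FDR 0.0480). All 3 fell without overlap of libraries. Rasl12, a Ras-like protein, was the most abundant of the 12 in Tat at 56.4, 98.8 and 58.1 CPM. In Tat-Amlexanox it had 14.6, 27.4 and 19.01 CPM (log2 difference -1.78, FDR 0.0217), still above its Control level of 1.63 to 4.91 CPM.

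The remaining 5 of the 12 were low genes. Msln, mesothelin, was at 1.57, 2.62 and 2.55 CPM in Tat and at 0, 0.719 and 0.305 CPM in Tat-Amlexanox (log2 difference -1.78, FDR 0.0217). Ptprcap, which associates with the leukocyte phosphatase CD45, was at 3.73, 8.87 and 4.59 CPM and at 1.06, 2.18 and 1.83 CPM (log2 difference -1.46, FDR 0.0338). The phosphatase Ptprv fell by 1.66 (FDR 0.0190), Cmahp by 1.42 (FDR 0.0307) and the procollagen protease Adamts14 by 1.41 (FDR 0.0328) on the log2 scale. Chosen after their values were seen, other falls were the matrix genes Eln (-1.15), Ccn2 (-1.03) and Emilin1 (-0.64), the laminin receptor subunit Itga7 (-1.13), the TNF family ligand Tnfsf15 (-1.21), the calcium-activated potassium channel Kcnn4 (-1.17), the interferon-inducible GTPase Gbp3 (-1.06) and arginase, Arg1 (-0.92). Kcnn4 encodes the channel that senicapoc blocks.

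Whether the same genes moved in libraries that the main comparison did not use was read from Tat-Cocaine-Amlexanox against Tat-Cocaine, where limma called 147 genes (0.925%, 55 higher and 92 lower), or 338 with the replicate block. All 64 rises were above 0 there, as were 52.7% of all genes tested, with a median of 0.28. Of the 69 falls, 65 were below 0, as were 47.3% of all genes, with a median of -0.33. At an FDR of 0.05, 13 of the rises were higher (0.346% of all genes) and 8 of the falls lower (0.579%). That comparison also leaned on single libraries, where omitting replicate 2 of Tat-Cocaine left 5 genes and omitting its replicate 3 left 1317.

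Among the leading rises, LOC24906 was at 0.298, 0.860 and 1.89 CPM in Tat-Cocaine and at 9.45, 4.61 and 5.21 CPM in Tat-Cocaine-Amlexanox (log2 difference 2.27, FDR 0.024). Cyp1a1 was at 3.58, 0.982 and 6.00 CPM and at 14.3, 9.18 and 16.4 CPM (log2 difference 1.98, FDR 0.041). Both rose with cocaine present and without overlap of libraries. Cd24 rose as well, from 319, 300 and 343 CPM to 512, 408 and 460 CPM (log2 difference 0.51, FDR 0.029), and Plekhg6 rose by 0.83 (FDR 0.037), whereas Pde7b differed by 0.67 (FDR 0.071).

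Of the falls, Ccl19 was at 19.3, 84.6 and 9.94 CPM in Tat-Cocaine and at 2.05, 3.31 and 2.17 CPM in Tat-Cocaine-Amlexanox (log2 difference -3.14, FDR 0.037). Alpl was at 8.26, 15.6 and 5.88 CPM and at 1.70, 3.47 and 1.79 CPM (log2 difference -1.83, FDR 0.011). Both fell again without overlap, and so did Msln (-1.65, FDR 0.035) and Cmahp (-1.29, FDR 0.046) by the test. Ptges missed the threshold, with 7.37, 46.3 and 31.2 CPM against 5.92, 13.7 and 4.22 CPM, ranges that overlapped (log2 difference -1.59, FDR 0.140). Cd69 (-0.84, FDR 0.322) and Pgf (-1.13, FDR 0.126) also missed it. The amlexanox effects with and without cocaine were compared directly, and 0 genes passed in limma, with 587 at an unadjusted p under 0.05.

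**Figure D3:**
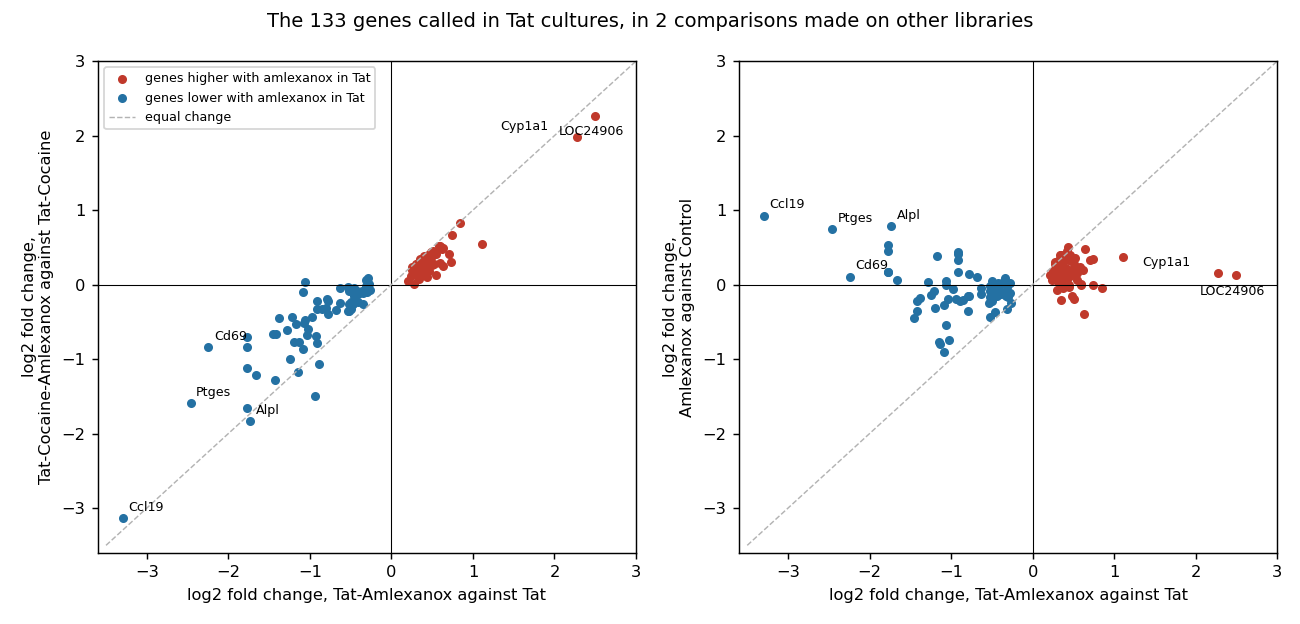
Log2 difference of the 133 genes in Tat-Amlexanox minus Tat (horizontal axes) against that in Tat-Cocaine-Amlexanox minus Tat-Cocaine and in Amlexanox minus Control (vertical axes), all on the log2(CPM + 0.5) scale. With cocaine all 64 rises lie above 0 and 65 of 69 falls below it, and in cultures without Tat 52 rises lie above 0 and 46 falls below it.

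In cultures without Tat, amlexanox alone called 1804 genes in limma (11.4%, 596 higher and 1208 lower), a count that became 160 without Amlexanox replicate 3 and 3003 without Amlexanox replicate 1. Of the 64 rises, 52 were above 0 there, against 51% of all genes, and 18 were called higher (3.75% of all genes). Of the 69 falls, 46 were below 0, against 49% of all genes, and 7 were called lower (7.6% of all genes). The medians were 0.16 and -0.11. The difference of the amlexanox effects between Tat and Control cultures passed for 292 genes (1.84%), or 693 with the replicate block. The 292 included 6 of the 64 rises and 15 of the 69 falls. That difference contains the main comparison, by which the rises and falls were chosen, so these shares are in part built in. The difference of effects passed for 0 genes without Control replicate 3 (1727 at an unadjusted p under 0.05) and for 0 without Amlexanox replicate 3 (1864). Leaving out another library of the 4 groups gave 27 (without Tat-Amlexanox replicate 1) to 1603 (without Amlexanox replicate 1) genes. Cd59 differed in sign, at 0.63 with Tat and at -0.40 without (difference of effects 1.03, FDR 0.0124). Ccl19, Ptges and Alpl fell with Tat but were above 0 without it, at 0.93, 0.74 and 0.78, and the differences of effects were -4.22, -3.20 and -2.51 (FDR 0.0358, 0.0340 and 0.0124).

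The Tat-Amlexanox libraries were also set beside Control, with the limit that these comparisons share libraries with the main one. Of the 69 falls, 51 were higher in Tat than in Control by limma (14.6% of all genes) and 0 lower, with a median of 0.94. In Tat-Amlexanox against Control 13 of them were higher (12.9% of all genes) and 11 lower (7.91%), with a median of 0.11. Of the 64 rises, 1 was higher and 12 lower (6.7% of all genes) in Tat than in Control, with a median of -0.09, whereas 41 were higher in Tat-Amlexanox than in Control, with a median of 0.31. In Tat-Cocaine against Cocaine, chosen after values were seen and sharing no library with the main comparison, 58 of the 69 falls were above 0 (84.1%, against 53.1% of all genes), with a median of 0.59, and 30 of the 64 rises were.

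The genes of the kinases that amlexanox inhibits did not pass the test. Tbk1 was at 39.3, 40.8 and 39.2 CPM in Tat and at 43.3, 43.3 and 40.9 CPM in Tat-Amlexanox (log2 difference 0.09, FDR 0.642). Ikbke was at 28.6, 25.3 and 17.5 CPM and at 12.3, 14.8 and 12.4 CPM, so its libraries did not overlap although the test was missed (log2 difference -0.81, SE 0.244, FDR 0.106). Of 23 tested genes of the TBK1 pathway list 0 were called, 4 had an unadjusted p under 0.05, and the median was -0.08. Over all 15890 genes tested, 1988 had an unadjusted p under 0.05, and 493 passed with the replicate block. With the replicate block 3 of the 23 passed, namely Tnfaip3, a ubiquitin-editing inhibitor of NF-kB signalling (-1.13, FDR 0.00460), Ikbke (FDR 0.0409) and the deubiquitinase Cyld (0.35, FDR 0.0375). The transcription factors that these kinases activate, Irf3 (-0.11, FDR 0.836) and Irf7 (-0.44, FDR 0.841), did not pass. Nor did the amlexanox-binding proteins S100a13, at 39.9, 23.3 and 28.3 CPM in Tat and 71.4, 44.98 and 51.7 CPM in Tat-Amlexanox (0.88, FDR 0.320), and Fgf1 (-0.20).

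The inflammatory lists leaned downward with few calls. Of 24 chemokine genes tested, 22 were below 0, with a median of -0.85 and a range of -3.29 to 0.39, and only Ccl19 passed. Their summed level was 3131 to 3943 CPM in Tat and 1737 to 2359 CPM in Tat-Amlexanox, without overlap. Ccl2, which attracts monocytes, was at 704, 916 and 782 CPM in Tat and at 415, 447 and 357 CPM in Tat-Amlexanox (log2 difference -0.97, FDR 0.579). Ccl5, which attracts T cells, was at 56.2, 79.6 and 83.1 CPM and at 24.5, 25.4 and 16.3 CPM (log2 difference -1.71, FDR 0.270). Both were lower in every Tat-Amlexanox library, yet neither passed. Cxcl10, induced by interferons, differed by -1.20 (FDR 0.675). With the replicate block Ccl20 (-1.84, FDR 0.0150), Cxcl14 (-0.86, FDR 0.00845) and Cxcl11 (-1.63) passed besides Ccl19, where 493 of all 15890 genes passed.

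All 21 tested NF-kB subunits and targets were below 0, with a median of -0.43, 0 calls and 8 with an unadjusted p under 0.05. With the replicate block 5 of them passed, namely Tnfaip2 (-1.23, FDR 0.00822), Tnip1 (-0.99, FDR 0.00185), the adhesion molecule Icam1 (-0.93, FDR 0.0252), the costimulatory receptor Cd40 (-1.16, FDR 0.00158) and the kinase Ripk2 (-0.62, FDR 0.00492). All 16 tested antigen presentation genes were also below 0 (median -0.55, 0 calls, 4 with an unadjusted p under 0.05). Of 40 interferon-stimulated genes 29 were below 0 (median -0.20), and Socs1 passed, joined with the block by Gbp5, an interferon-inducible GTPase (-1.53, FDR 0.0152). Of 20 cytokine genes 15 were below 0 (median -0.37, 0 calls, 6 with an unadjusted p under 0.05), and with the block Csf3, the granulocyte colony-stimulating factor, passed (-1.20, FDR 0.0260). The 18 complement genes had a median of -0.02. Over all 15890 genes tested, 54.1% were below 0. At an unadjusted p under 0.05, 1113 of them were lower and 875 higher. With the block 493 of all genes passed, 44% of them higher. The interleukin Il1b was at 98.4, 108 and 36.97 CPM in Tat and at 56.7, 72.6 and 41.1 CPM in Tat-Amlexanox, which overlap (log2 difference -0.40, FDR 0.827). Il6 (0.27) and Il10 (-0.12) did not pass either. Acod1, which makes itaconate in activated macrophages, was at 47.5, 92.2 and 8.75 CPM and at 8.46, 22.03 and 4.54 CPM (log2 difference -1.78, FDR 0.355) and differed by 0.10 with cocaine present.

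**Figure D4:**
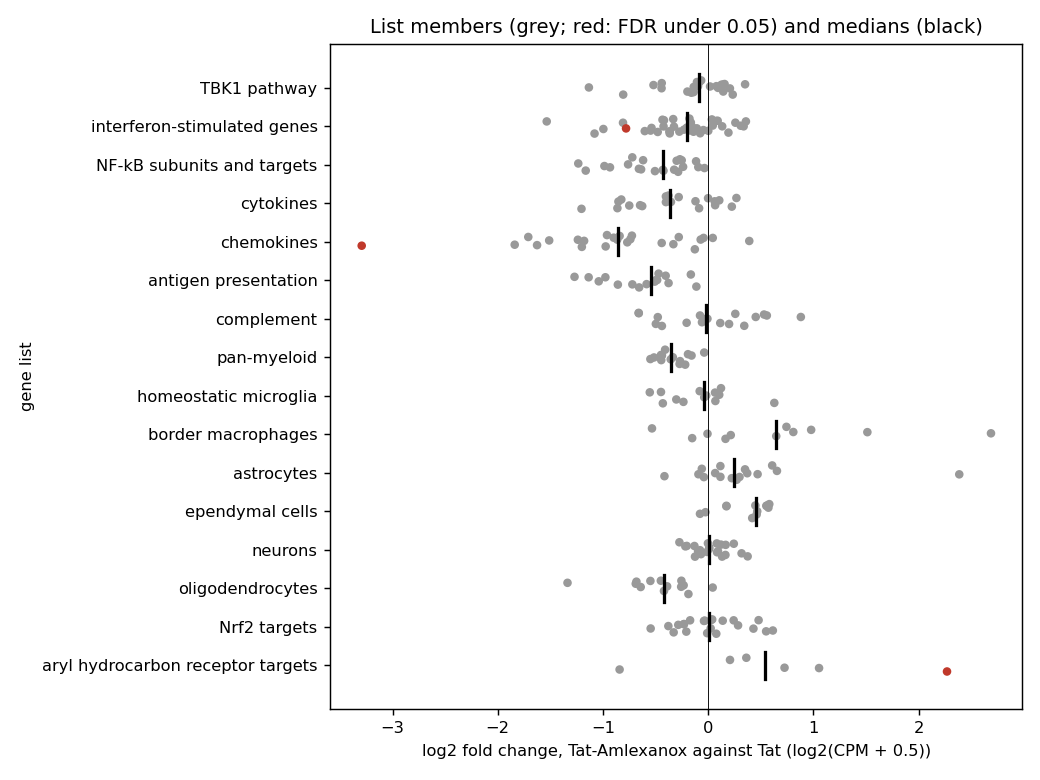
Log2 difference on the log2(CPM + 0.5) scale, Tat-Amlexanox minus Tat (horizontal axis), of each tested member of 16 gene lists (vertical axis), with the median of each list. The 21 NF-kB, 16 antigen presentation and 15 pan-myeloid genes all lie below 0, and the chemokine list has the lowest median, -0.85.

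In the cocaine libraries the medians of some lists were closer to 0. They were -0.28 for chemokines, 0.00 for NF-kB subunits and targets, -0.27 for antigen presentation, -0.09 for cytokines and 0.02 for interferon-stimulated genes. The complement median was 0.28 there. Acute-phase and secreted defence genes had a median of -0.30 in Tat-Amlexanox against Tat and 0.29 with cocaine. For microglial activation genes these medians were -0.19 and 0.30. The markers of cell types stood as follows beside them. All 15 tested pan-myeloid genes were below 0 in Tat-Amlexanox against Tat (median -0.36, 0 calls and 0 with an unadjusted p under 0.05), at a summed level of 1751 to 3486 CPM in Tat and 1582 to 2300 CPM in Tat-Amlexanox. In the cocaine libraries the pan-myeloid median was 0.32. Homeostatic microglial genes had a median of -0.04, with sums of 700 to 1045 CPM and 740 to 959 CPM, and the microglial receptor P2ry12 differed by -0.02. The 11 border macrophage genes had a median of 0.65, and F13a1 among them passed with the block (2.69, FDR 0.0140). The part of myeloid cell content in the immune genes was not tested.

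Markers of the other cells of the culture did not pass in the main fit. The 16 astrocyte genes had a median of 0.25, with sums of 9585 to 12757 CPM in Tat and 13043 to 14221 CPM in Tat-Amlexanox, and Gfap was at 3680, 2430 and 2231 CPM and at 4878, 4148 and 3841 CPM (log2 difference 0.65, FDR 0.250). These sums and the Gfap libraries did not overlap, and with the block Slco1c1, a thyroid hormone transporter in that list, passed (2.39, FDR 0.0275). The 22 neuronal genes had a median of 0.01 and overlapping sums of 2285 to 4067 CPM and 2857 to 4176 CPM, with Map2 at 0.17. The 13 oligodendrocyte genes (median -0.42) and 12 ependymal genes (median 0.45) had 0 calls. In Amlexanox against Control 11 of the 12 ependymal genes (median -1.98) and 8 of the 16 astrocyte genes (median -0.74) were called lower, where 7.6% of all genes were. The medians had the opposite sign to those with Tat, and that comparison is the one whose 1804 calls became 160 without Amlexanox replicate 3. The antioxidant response was near 0, with a median of 0.01 over 22 targets of Nrf2. Among them Nqo1 differed by -0.21 and Gclc by 0.24 (FDR 0.309), and with the block Tkt fell (-0.33, FDR 0.0212) and Gsta4 rose (0.48).

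Against the other compounds given with Tat, the values were set side by side at their own doses, which differ. LOC24906 averaged 8.52 CPM in Tat-Amlexanox, 2.00 CPM in Tat-Senicapoc, 1.93 CPM in Tat-Tazemetostat and 5.39 CPM in Tat-4OI. Cyp1a1 was at 2.81 ± 0.731 CPM (SD, n = 3) in Tat-Senicapoc, 2.10 ± 0.775 CPM in Tat-Tazemetostat and 1.28 ± 0.408 CPM in Tat-4OI, with means below the lowest Tat-Amlexanox library. Ptges and Ccl19 had lower means than in Tat with the other compounds too, with Tat-Tazemetostat the nearest to Tat. The falls were chosen against these same Tat libraries, so lower means than in Tat are in part built in. Mean Ptges was 7.94 CPM in Tat-Amlexanox, 8.13 CPM in Tat-Senicapoc, 26.9 CPM in Tat-Tazemetostat and 2.54 CPM in Tat-4OI, against 43.3 CPM in Tat. Mean Ccl19 was 2.55, 6.16, 12.2 and 3.85 CPM in the same order, against 38.5 CPM in Tat. Crispld2 (6.30 and 6.69 CPM), Pgf (5.37 and 5.41 CPM) and Rasl12 (20.3 and 24.4 CPM) also had near means in Tat-Amlexanox and Tat-Senicapoc. None of these 5 genes passed between those groups. In Tat-Tazemetostat, mean Crispld2, Pgf and Rasl12 were 18.3, 10.6 and 35.3 CPM, against 22.2, 19.6 and 71.1 CPM in Tat. Against Tat-4OI, Rasl12 was higher in Tat-Amlexanox (log2 difference 1.27, FDR 0.0239). Over all genes, limma called 0 between Tat-Amlexanox and Tat-Senicapoc (2488 at an unadjusted p under 0.05), 0 between Tat-Amlexanox and Tat-Tazemetostat (1703) and 2178 between Tat-Amlexanox and Tat-4OI (13.7%). With the replicate block the first 2 counts were 34 and 336.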

How the data were processed

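RNA was sequenced from 48 libraries in 16 groups of 3. Per the labels and the study's methods, paired-end reads from a stranded kit were trimmed, aligned with STAR, and featureCounts gave reads per gene. The submitters' processing notes list Trim Galore 0.4.5, STAR 2.7.2, SAMtools 1.5 and Subread 1.5.3. The sources name different rat builds, so no coordinate is taken from the table. The authors deposited a scaled signal, CPM with trimmed-mean (TMM) library factors, whose columns sum to 930399 to 1046890. Between 84.8% and 86.8% of values under 200 reads were whole reads within 0.02, too few for a count test, and the deposited group means and the authors' comparisons (fold changes and p-values) were not used. Promoters came from RefSeq (GRCr8), matched by symbol for 11225 of the 15890 genes tested.

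Groups followed the sample titles. Genes with at least 0.5 CPM (8.58 to 15.0 reads) in at least 3 libraries were tested with limma 3.58.1 in R 4.3.3 on log2(CPM + 0.5), in 1 fit of 16 group means to all 48 libraries with a mean-variance trend and Benjamini-Hochberg adjustment over 15890 genes. An exact permutation test of 3 against 3 libraries cannot go below p = 0.1. On simulated data the fit recovered 47.8% of 1.5-fold, 70.1% of 2-fold and 83.3% of 4-fold changes in this comparison. A gene without a call may therefore still have changed. The simulation drew each gene in each library independently, without the deviations that real libraries of the same number share. These shares may therefore not hold for the real data. Named genes were the 12 largest rises and falls past the threshold, called members of 36 lists of genes by function or cell type (609 genes, 554 tested), up to 2 members with the highest mean CPM of a list with no call, and a fixed set of genes of Tat, amlexanox and inflammation. The rule also named Gmnc, Fgf10, LOC500877, Chrdl1 and Btg2, which had the smallest p for the difference of amlexanox effects between Tat and Control cultures. List members outside this rule that are named for a call with the replicate block, or as examples, were chosen after their values were seen. Members, lists and tests were chosen with earlier results of these data known. Libraries with the same number deviated together from their group means in Tat and Tat-Amlexanox (correlations across genes 0.27, 0.54 and 0.68), so the numbers were taken to pair the libraries and a fit with a replicate block is given beside results that it changes. Alternatives were the pseudocount, the filter, the scaling, the libraries fitted, array weights, the block and each library left out.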

Additional observations from a re-analysis of the deposited data

Results flagged for a closer look

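The amlexanox effect differed between cultures with and without Tat, by limma's test of the difference of effects, for 20 of the named genes. Over all genes, 292 passed that test, 0 without Control replicate 3 (1727 at an unadjusted p under 0.05) and 0 without Amlexanox replicate 3 (1864). Among genes that changed in Tat-Amlexanox against Tat, the difference of effects (Tat minus Control cultures, log2 scale) was 1.03 for Cd59 and 0.60 for Cd24. It was -4.22 for Ccl19, -3.20 for Ptges, -2.35 for Cd69, -2.31 for Rasl12, -2.23 for Msln, -2.51 for Alpl, -1.73 for Ptprv and -1.32 for Retn. Cd69, Ptprv and Retn differed by 0.11, 0.07 and 0.04 with amlexanox alone. All these genes were chosen by Tat-Amlexanox against Tat, a comparison that the difference of effects contains.

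The other 10 genes did not pass in Tat-Amlexanox against Tat. Of these, Gmnc, Fgf10, LOC500877, Chrdl1 and Btg2 were named only because they had the smallest p in this same test. That they passed it was therefore fixed by the choice. The ependymal cilia genes Cfap43 and Ccdc153 had differences of effects of 2.64 and 2.66, with amlexanox effects of 0.56 and 0.55 in Tat cultures and -2.09 and -2.10 without Tat. Gmnc, the regulator of multiciliated cells, had 2.83, from 0.17 with Tat and -2.66 without. Chrdl1, a bone morphogenetic protein antagonist of astrocytes, had 2.18, from 0.10 and -2.08, and LOC500877 had 1.65, from 0.61 and -1.04. The growth factor Fgf10 had -2.75, from -0.83 with Tat and 1.93 without. The immediate-early gene Junb had -1.15 and the antiproliferative gene Btg2 -1.24, and both were higher with amlexanox alone, at 0.98 and 0.82. Timp1, an inhibitor of metalloproteinases, had -1.69, from -0.87 and 0.83. Gclc, the catalytic subunit of glutathione synthesis, had 0.66, from 0.24 and -0.42.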

How the results depend on the processing

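The count of 133 genes for Tat-Amlexanox against Tat became 0 in a fit to the 6 libraries alone (1728 at an unadjusted p under 0.05) and 0 in a fit to 12 libraries (1406), where fewer libraries inform the spread. It became 211 with array weights, 30 with a minimum log2 difference of 1, 493 with the replicate block and 529 with the block in the fit to 6 libraries, the last chosen after seeing the data. With pseudocounts of 0.1 and 1 CPM, no filter, a 2 CPM minimum, median ratio or quantile scaling and no trend it lay between 94 and 182. The block moved the counts of Tat-Cocaine-Amlexanox against Tat-Cocaine to 338, of the difference of effects with Control to 693, and of Tat-Amlexanox against Tat-Senicapoc and Tat-Tazemetostat to 34 and 336. Among the genes chosen by the naming rule it changed the call of Tkt, Timp1 (-0.87, FDR 0.0468) and Ikbke, and the other list members that it added are named beside their lists. A pseudocount of 0.1 CPM gave 91 for Tat-Cocaine-Amlexanox against Tat-Cocaine. No filter gave 131 for the difference with Control, 2 for the difference with Tat-Cocaine, 24 against Tat-Senicapoc and 9 against Tat-Tazemetostat, and quantile scaling gave 1 and 2 for the last pair. Leaving out each library moved the count from 0 to 178 for Tat-Amlexanox against Tat, 160 to 3003 for Amlexanox against Control, 5 to 1317 for Tat-Cocaine-Amlexanox against Tat-Cocaine, 0 to 1603 for the difference with Control, 0 to 1 for that with Tat-Cocaine, 1830 (without Tat replicate 2) to 3857 for Tat and 1826 (without Tat-Amlexanox replicate 1) to 3430 for Tat-Amlexanox against Control, and 0 to 1, 0 to 4 and 708 (without Tat-Amlexanox replicate 1) to 2342 against Tat-Senicapoc, Tat-Tazemetostat and Tat-4OI. The causes of these shifts were not tested. Of the 133 genes, 17 were called in none of the 6 fits that left out a Tat or Tat-Amlexanox library and 56 in 2 of them. No gene, interaction or list median reversed. Depth of 17.5 to 29.1 M reads limits genes under 0.5 CPM.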

Other observations

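Gene groups not described above gave few calls in Tat-Amlexanox against Tat. Of 24 cholesterol synthesis genes 21 were below 0 (median -0.15), of 22 cell cycle genes 20 (median -0.23) and of 15 glycolysis and hypoxia genes 13 (median -0.19), each with 0 calls. The 17 immediate-early genes had a median of 0.10 with Tat and 0.64 without it. In Amlexanox against Control 7 of them were called higher, where 3.75% of all genes were. The 1804 calls of that comparison became 160 without Amlexanox replicate 3. The 11 tested matrix metalloproteinases and inhibitors had a median of -0.27, the 22 microglial activation genes -0.19, the 16 disease-associated microglial genes -0.16 and the 7 fibroblast genes -0.16, all with 0 calls. Itgax, an integrin of dendritic cells and disease-associated microglia, differed by -1.73 and passed with the replicate block (FDR 0.00162). The block also added the leukotriene enzyme Alox5 (0.84, FDR 0.0229), the chaperones Dnaja1 (0.33, FDR 0.00979) and Dnajb1 (0.21, FDR 0.0433) and the stress gene Gadd45b (-1.02, FDR 0.0295).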
